A study of Sus scrofa with 11 samples.

Results

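The genes described here encode the secreted and membrane-bound metalloproteinases of the artery wall and their inhibitors, as read from RNA sequencing of pig (Sus scrofa) carotid arteries. Members were the rows of the count table named as an MMP, a TIMP, an ADAMTS or an ADAM, MMP meaning matrix metalloproteinase. Each member also had 10 or more counts in at least 2 of the 10 libraries. Of 62 names that matched, 50 met this threshold, out of 35670 rows in the table. They are 16 MMP, 3 TIMP, 19 ADAMTS and 12 ADAM genes. MMP7 was just inside the threshold, with 16 counts in SWNT replicate 3 and 12 in SWNT-SHP1i replicate 6, and MMP1 was just outside it, with 12 and 6 counts in its highest libraries. The 12 names left out were MMP1, MMP13, MMP20, ADAM2, ADAM3A, ADAM7, ADAM18, ADAM20, ADAM21, ADAM29, ADAM30 and ADAM32.

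These enzymes share a zinc ion in the catalytic site, and most are made as inactive proforms. MMPs cut collagen, gelatin, elastin and other matrix proteins. ADAMTS proteins are secreted, carry thrombospondin motifs that hold them in the matrix, and cut proteoglycans, procollagens and other large proteins there. ADAMs sit in the cell membrane and release the outer parts of growth factors, cytokines and receptors. TIMPs are small secreted proteins that block the catalytic site, and TIMP3 also inhibits several ADAM and ADAMTS enzymes. In atherosclerosis the families are known for remodelling of the intima and for thinning of the fibrous cap.

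All pigs ate a Western diet rich in fat and calories for 12 weeks and were infused by vein every week, under general anaesthesia, at 400 nM. The SWNT-SHP1i group received single-walled carbon nanotubes carrying an inhibitor of the phosphatase SHP-1, and the SWNT group received the same nanotubes without it. The study asked about efficacy, inflammation and anaemia under this macrophage-directed treatment. Counts cover 5 SWNT-SHP1i animals, replicates 1, 2, 3, 5 and 6, and 5 SWNT animals, replicates 1 to 5, and lists of 5 values below follow these orders. SWNT-SHP1i replicate 4 is labelled as having died before harvest and was not analysed here. The labels give no breed, sex, age, lesion grade or untreated animals, and each library is whole carotid tissue of 1 animal.

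Library totals ran from 27593564 to 39413481 counts in SWNT-SHP1i and from 32931527 to 47718854 in SWNT. Levels are given in CPM, each count scaled to a common library size. The 7 smooth muscle markers together had 16976 to 39027 CPM in SWNT-SHP1i and 32337 to 48357 CPM in SWNT, and all 7 were expressed. SWNT-SHP1i replicate 6 (animal B9174) stood apart, so differences are given with and without it. In that library the 10 macrophage markers summed to 2123 CPM and the 6 osteoclast markers to 2049.6 CPM. The other 9 libraries had 391 to 1428 and 173 to 339.8 CPM of these lists. ACP5 alone gave 1686 CPM of the osteoclast sum of replicate 6. CTSK, OCSTAMP and ATP6V0D2 were also highest there, but CALCR was at its lowest (0.333 CPM). DCSTAMP, OCSTAMP and ATP6V0D2 were too low to test. All macrophage markers but C1QA, C1QC and MRC1 were highest in replicate 6. MRC1 had 28.4 CPM there, and 48.0 to 63.7 CPM in SWNT-SHP1i replicates 1, 2 and 3. Fold changes were positive for 10 of 10 macrophage, 3 of 3 tested osteoclast and 0 of 7 smooth muscle markers. The smooth muscle sum of replicate 6, 16976 CPM, was the lowest. Low counts were uneven too. Genes with 1 to 19 counts numbered 332 in SWNT-SHP1i replicate 3 and 1982 in SWNT replicate 3, against 3514 to 4703 in the other 8 libraries, which touches members near 0 in those libraries. SWNT-SHP1i replicate 3 also had the highest share of mitochondrial counts, 8.61% against 1.16 to 2.97% in the other 9 libraries, and the fewest genes with a count, 14497 against 17259 to 19942. Without SWNT-SHP1i replicates 3 and 6 the log2 fold change (SWNT-SHP1i over SWNT) was -0.026 for MMP9 and 2.62 for ADAMTS19. The part of these library traits in the MMP3, MMP9 and ADAMTS19 values was not tested.

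Among the 47 members that passed the low-count filter, 26 (55.3%) had positive fold changes in SWNT-SHP1i, against 50.8% of all genes tested. These included 9 of 14 MMP genes and 9 of 19 ADAMTS genes, and no member passed the test. MMP2, MMP9, MMP19, MMP25, ADAM12, ADAMTS7 and ADAMTS19 had the smallest p among those higher, with log2 fold changes of 0.95 for MMP2 to 5.54 for MMP9. ADAMTS1, ADAMTS8, ADAM23 and MMP28 had the smallest p among those lower, from -0.47 for MMP28 to -1.51 for ADAMTS1. With edgeR's quasi-likelihood test, 0 of 47 members and 0% of the 15930 genes tested had an adjusted p under 0.05, and the members' adjusted p ran from 0.997 to 0.999. DESeq2 and limma-voom called 0 genes as well. At an unadjusted p under 0.05 there were 739 genes in all with edgeR, 986 with DESeq2 and 1385 with limma-voom.

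At that unadjusted threshold 7 of 47 members were higher, against 3.49% of all genes tested, and 4 were lower, against 1.15% of all genes. The higher members thus made up 14.9% and the lower ones 8.51% of those tested. Without replicate 6 these counts were 3 and 3 of 49, against 2.59% and 1.97% of all genes. They were MMP19, ADAMTS19 and ADAM9 (higher) and MMP11, MMP28 and ADAM23 (lower). In no member did the groups stand clear of each other: 0 had all SWNT-SHP1i libraries above all SWNT libraries, where 0.0816% of all genes did, and 0 had them all below, where 0.276% did. The median log2 fold change (SWNT-SHP1i over SWNT) was 0.15 over the members and 0.0056 over all genes tested. By family it was 0.48 for 14 MMP genes, -0.15 for 3 TIMP genes, -0.22 for 19 ADAMTS genes and 0.17 for 11 ADAM genes. Without replicate 6 the 4 medians were 0.11, 0.077, -0.18 and 0.11, in the same order. The ADAMTS median turned positive without SWNT-SHP1i replicate 3 (0.093) or SWNT replicate 3 (0.073). MMP3, MMP7 and ADAM22 did not pass the filter and were not tested.

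**Figure D1:**
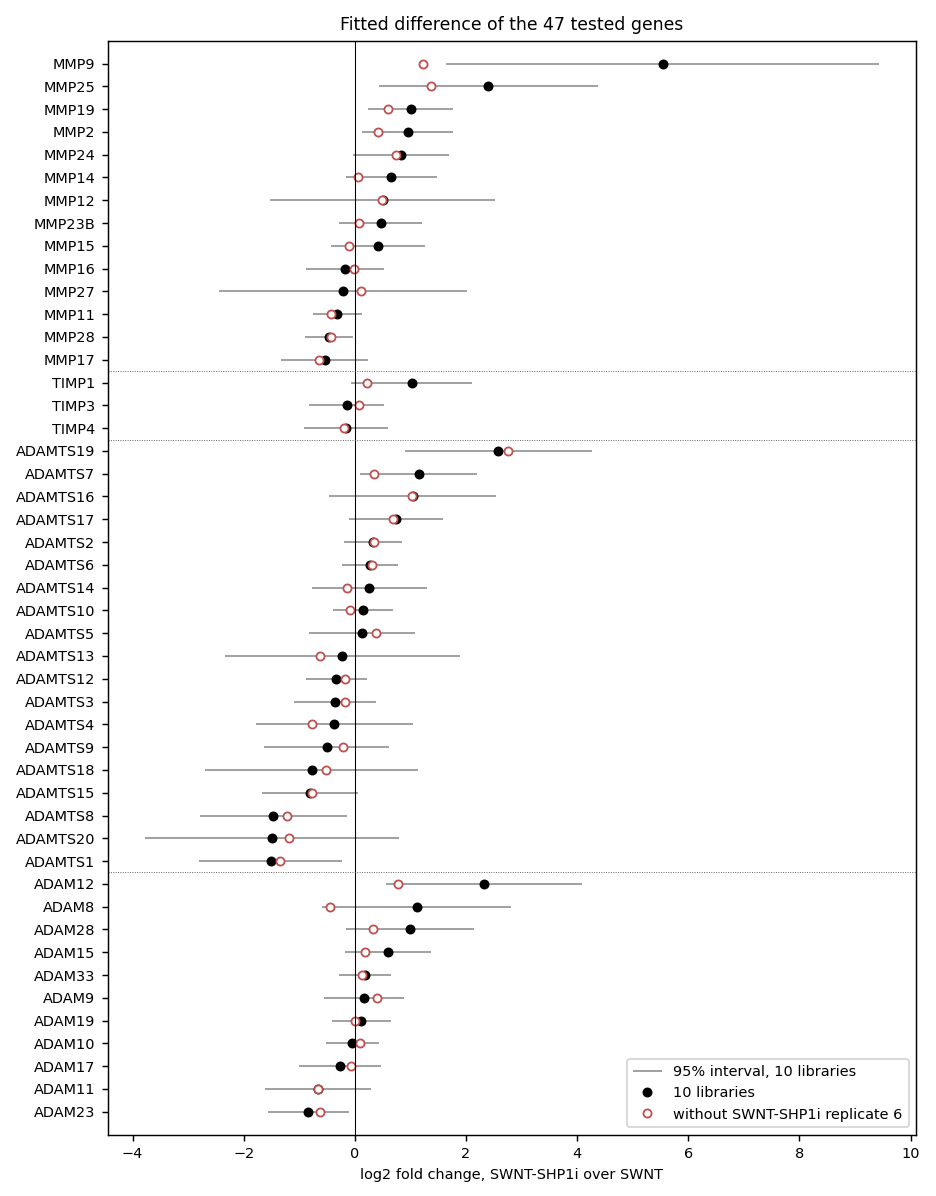
Fitted log2 fold change of SWNT-SHP1i over SWNT (horizontal axis) for the 47 tested genes, grouped as MMP, TIMP, ADAMTS and ADAM from top to bottom. Filled points and lines are the estimate and 95% interval over 10 libraries, and open points leave out SWNT-SHP1i replicate 6. MMP9 moves furthest, with 5.54 over 10 libraries and 1.23 without that library.

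Per length, MMP2, TIMP3, TIMP1 and MMP14 led the families. Mean levels over the 10 libraries, as CPM divided by exon length in kilobases (RPKM), were 400.4 for MMP2, 230.2 for TIMP3, 169.8 for TIMP1 and 119.7 for MMP14. MMP23B (86.9 RPKM), MMP28 (69.6 RPKM) and MMP11 (57.9 RPKM) followed. The highest ADAMTS genes were ADAMTS2 (47.1 RPKM), ADAMTS10 (34.1 RPKM) and ADAMTS1 (28.5 RPKM), and the highest ADAM genes were ADAM33 (31.5 RPKM), ADAM15 (28.6 RPKM) and ADAM19 (12.3 RPKM). The ranges of MMP2 and TIMP3 overlapped, with 231 to 1177 RPKM of MMP2 in SWNT-SHP1i and 227 to 353 in SWNT. TIMP3 had 72.2 to 298 RPKM in SWNT-SHP1i and 193 to 272 in SWNT. MMP2 alone made up 46.7 to 58.7% of the summed MMP level in SWNT-SHP1i and 36.6 to 50.5% in SWNT.

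**Figure D2:**
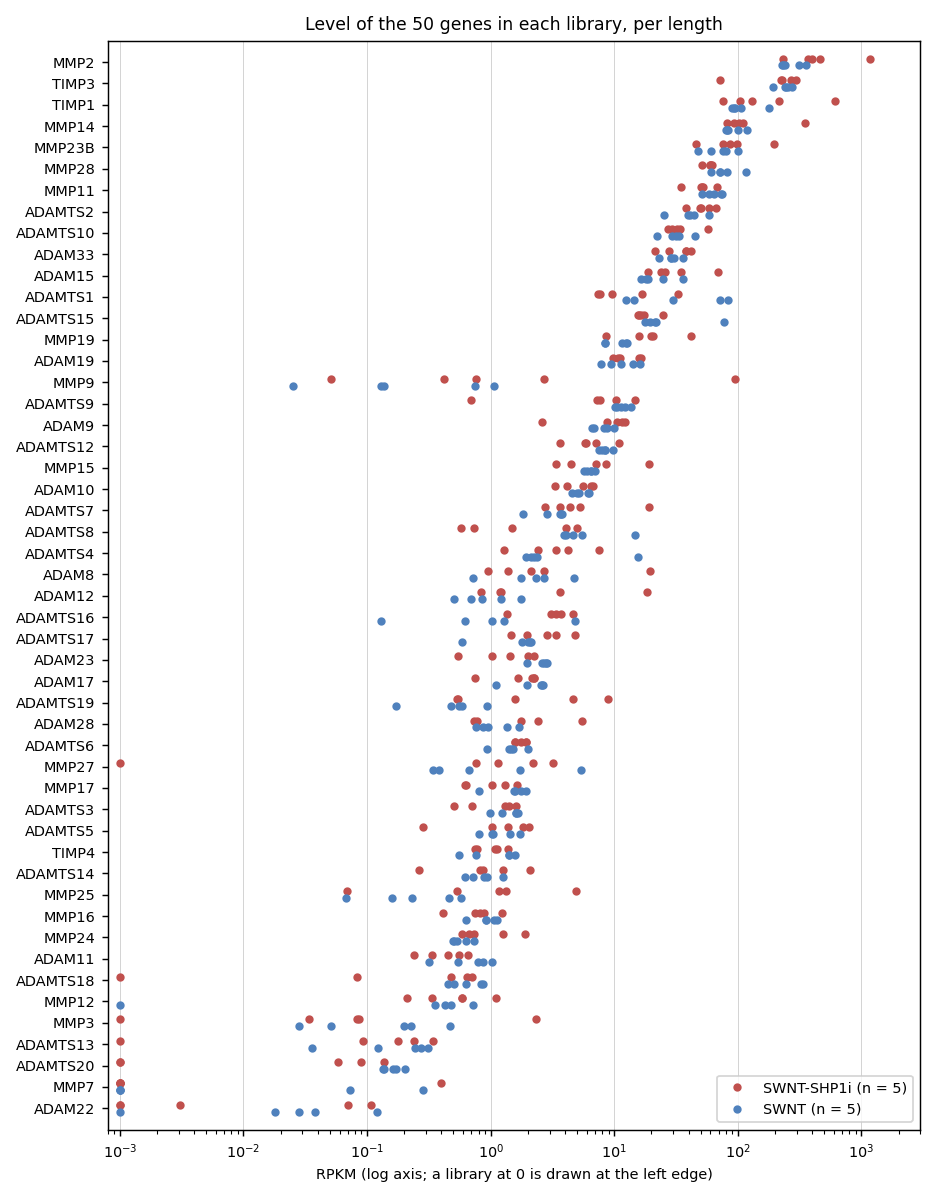
Level of each of the 50 genes in every library in RPKM (horizontal log axis), ordered by mean level. Each point is 1 animal, 5 per group, and MMP2, TIMP3, TIMP1 and MMP14 lie at the top in both groups.

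The gelatinases come first among the MMPs. MMP2, which cuts denatured collagen and basement membrane, lies on chromosome 6, 30058595 to 30086982 (Sscrofa11.1, minus strand). It had 1622, 1313, 1406, 815 and 4152 CPM in SWNT-SHP1i, against 1247, 1100.2, 802, 853 and 819 CPM in SWNT. All SWNT-SHP1i libraries but replicate 5 lay above the highest SWNT library. The fitted log2 fold change was 0.95 ± 0.38 (SE), with a 95% interval of 0.12 to 1.77. It was 0.42 without replicate 6 and 0.38 without replicates 3 and 6.

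MMP9, the gelatinase stored in neutrophil granules and also made by macrophages and osteoclasts, was high in 1 library. Its values were 1.78, 0.978, 6.30, 0.120 and 221 CPM in SWNT-SHP1i and 0.318, 0.0590, 1.74, 2.46 and 0.299 CPM in SWNT. Replicates 3 and 6 of SWNT-SHP1i lay above every SWNT library, and the rest overlapped. The log2 fold change of 5.54 ± 1.79 (SE) was 1.23 without replicate 6 and -0.026 without replicates 3 and 6. DESeq2 set its adjusted p to missing as a count outlier, and the same held for ADAM8. The 6 neutrophil markers summed to 33.6, 5.94, 53.9, 2.19 and 114 CPM in SWNT-SHP1i and 8.26, 4.51, 8.35, 9.84 and 3.53 CPM in SWNT. Of these markers 5 of the 5 tested had positive fold changes, and S100A12 was too low to test. Replicate 6 was the highest library for MMP9 and for the neutrophil, macrophage and osteoclast sums, the osteoclast sum being mostly ACP5. The part of these markers in the MMP9 difference was not tested. In whole tissue, more cells of a type and more RNA per cell cannot be told apart.

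Among the membrane-type MMPs, MMP14, which activates the proform of MMP2 at the cell surface, was high in the same library. It had 361, 428, 317, 399 and 1351 CPM in SWNT-SHP1i and 463, 312, 325, 318 and 392 CPM in SWNT. Replicate 6 stood 3.74-fold above the median of the other 9 libraries, which overlapped. The log2 fold change of 0.66 ± 0.38 (SE) was 0.057 without that library. MMP25, a lipid-anchored enzyme of leukocytes, had 4.07, 1.86, 4.67, 0.240 and 17.01 CPM in SWNT-SHP1i and 2.02, 0.236, 0.804, 0.552 and 1.62 CPM in SWNT, a log2 fold change of 2.40 ± 0.90 (SE) and 1.37 without replicate 6. Its SWNT-SHP1i replicates 1, 3 and 6 lay above every SWNT library, as did the same 3 libraries for the neutrophil sum. Among the neutrophil markers, CSF3R and PGLYRP1 followed the sum, but others did not. In SWNT-SHP1i replicate 1, S100A8, S100A9 and S100A12 (0.457, 0.864 and 0.102 CPM) lay below SWNT replicate 3 (1.79, 1.74 and 1.47 CPM). CXCR2 in SWNT-SHP1i replicate 3 (1.52 CPM) lay below SWNT replicate 4 (2.46 CPM). SWNT-SHP1i replicates 1, 3 and 6 also stood apart for other marker lists given below. Of the other membrane-bound members, MMP15 spanned 12.98 to 73.5 CPM in SWNT-SHP1i and 22.1 to 27.2 CPM in SWNT, and MMP16 spanned 2.66 to 8.09 CPM in SWNT-SHP1i and 4.11 to 7.27 CPM in SWNT. MMP17 had 2.87 to 7.55 CPM in SWNT-SHP1i and 3.71 to 8.94 CPM in SWNT, and MMP24 had 2.61 to 8.42 CPM in SWNT-SHP1i and 2.19 to 3.22 CPM in SWNT. In these 4 genes the groups overlapped.

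MMP19, a secreted enzyme of basement membrane turnover, had the same 4 libraries at the top as MMP2. Its values were 30.4, 24.1, 31.4, 12.98 and 64.1 CPM in SWNT-SHP1i and 19.05, 17.5, 12.7, 19.4 and 12.7 CPM in SWNT. Replicate 5 of SWNT-SHP1i lay within the SWNT range, and all its other libraries lay above it. The fit gave a log2 fold change of 1.0 ± 0.36 (SE), and 0.60 without replicate 6. In both genes the exception, replicate 5, had the lowest macrophage sum of its group (405 CPM). It also had the lowest neutrophil, osteoclast, fibroblast and T cell sums of its group, and the highest smooth muscle sum (39027 CPM). The 6 fibroblast markers summed to 31299 to 55729.8 CPM in SWNT-SHP1i and 18020.4 to 37544 CPM in SWNT, and 6 of 6 had positive fold changes, but COL1A1, also a matrix substrate below, made up most of each sum. The other 5 fibroblast markers summed to 1933 to 5141 CPM in SWNT-SHP1i and 1446 to 4386 CPM in SWNT, and replicate 6 was the lowest of its group. The part of any of these marker lists in the MMP2 and MMP19 differences was not tested. MMP28, known as epilysin, was lower, with 150.8, 151.5, 154.6, 156.1 and 131.8 CPM in SWNT-SHP1i and 155.0, 208.6, 297.0, 184.1 and 184.3 CPM in SWNT. Replicates 1, 2, 3 and 6 of SWNT-SHP1i lay below the lowest SWNT library and replicate 5 lay just above it. Its log2 fold change of -0.47 ± 0.20 (SE) was -0.43 without replicate 6 and -0.31 over animals whose number begins with B9, which leaves out replicate 3 of both groups.

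MMP23B had 197, 150.3, 173, 91.8 and 388 CPM in SWNT-SHP1i and 160.0, 151, 200.1, 120.0 and 93.9 CPM in SWNT, with a log2 fold change of 0.46 ± 0.34 (SE) that was 0.076 without replicate 6. A row on the opposite strand, CDK11B, overlaps it, and the strand setting of the counts is not given in the sources used here. MMP11, which is activated inside the cell by furin, spanned 77.9 to 153 CPM in SWNT-SHP1i and 116 to 165 CPM in SWNT. Its log2 fold change was -0.31 ± 0.20 (SE), and -0.44 without replicate 6.

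The collagenase and stromelysin genes lie together on chromosome 9, between 33214594 and 33561162 (Sscrofa11.1), all on the minus strand, and had low counts. MMP12, the macrophage elastase, had 0.661, 1.17, 2.17, 0.420 and 1.16 CPM in SWNT-SHP1i and 0.954, 0.708, 0, 0.853 and 1.44 CPM in SWNT, so the groups overlapped. The fit gave 0.50 ± 0.93 (log2 fold change, SE), and 0.49 without replicate 6. MMP3, stromelysin, had 0.152, 0.147, 4.13, 0.0600 and 0 CPM in SWNT-SHP1i and 0.0908, 0.354, 0.402, 0.0502 and 0.838 CPM in SWNT, with 152 counts in SWNT-SHP1i replicate 3 and at most 28 in any other library. MMP7, matrilysin, had no count in 7 libraries and 4 to 16 in the other 3. MMP27 spanned 0 to 6.23 CPM in SWNT-SHP1i and 0.659 to 10.4 CPM in SWNT, and MMP1 and MMP13 reached at most 12 and 22 counts in any library.

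**Figure D3:**
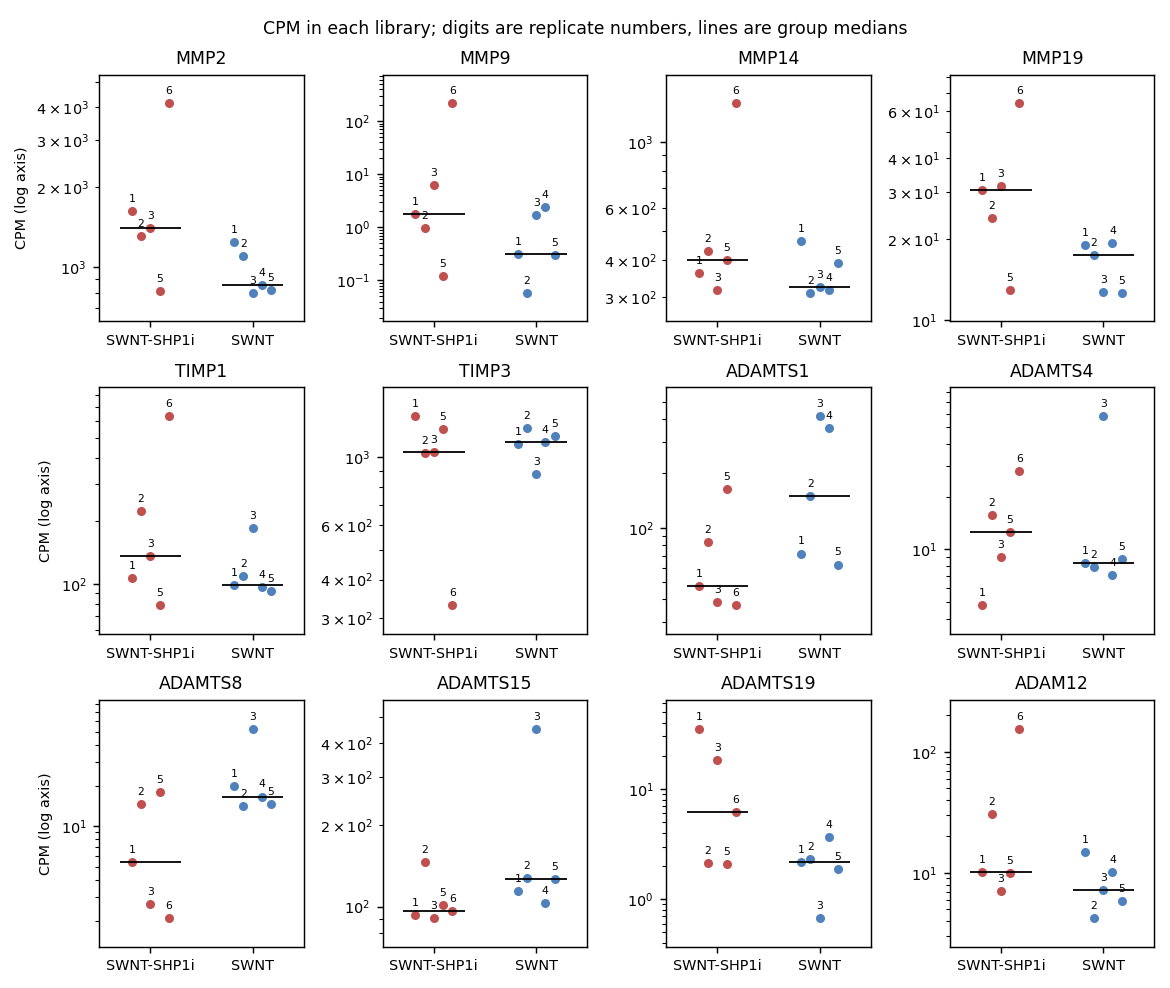
CPM (log axis) of 12 genes in each library, SWNT-SHP1i left of SWNT, with replicate numbers above the points and lines at the group medians. SWNT-SHP1i replicate 6 is highest for MMP2, MMP9, MMP14, MMP19, TIMP1 and ADAM12 and lowest for TIMP3, while SWNT replicate 3 is highest for ADAMTS1, ADAMTS4, ADAMTS8 and ADAMTS15.

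TIMP1 was high and TIMP3 low in SWNT-SHP1i replicate 6. TIMP1, the soluble inhibitor of most secreted MMPs, lies on chromosome X, 42102172 to 42106296 (plus strand). It had 107, 222, 136, 78.8 and 635 CPM in SWNT-SHP1i and 98.8, 109, 184, 96.6 and 92.8 CPM in SWNT. Replicates 2 and 6 of SWNT-SHP1i were above every SWNT library. Its fitted difference of 1.02 ± 0.50 (log2, SE) was 0.23 without replicate 6. The row SYN1 overlaps TIMP1 on the opposite strand. TIMP3, the inhibitor that binds matrix, lies on chromosome 5, 12185818 to 12242581 (minus strand). It had 1362, 1028, 1037, 1233 and 329.5 CPM in SWNT-SHP1i and 1105, 1243, 883, 1119 and 1167 CPM in SWNT, so replicate 6 alone was far below all other libraries. In log2 the difference was -0.15 ± 0.31 (SE), and 0.077 without that library. TIMP4 had 5.997, 4.30, 4.13, 7.67 and 6.20 CPM in SWNT-SHP1i and 8.67, 4.19, 7.73, 7.83 and 3.05 CPM in SWNT, with a log2 fold change of -0.15 ± 0.35 (SE), -0.19 without replicate 6, and the groups overlapped.

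TIMP2, the partner of MMP14 in MMP2 activation, has no name in the count table and is not among the 50. The row at its RefSeq position (chromosome 12, 3254493 to 3300834, Sscrofa11.1) had 1282, 1240.1, 1064, 1095 and 1512 CPM in SWNT-SHP1i and 1299.7, 1342, 1277, 913 and 1094 CPM in SWNT. Its log2 fold change was 0.064 ± 0.19 (SE), -0.019 without replicate 6, and its mean level of 243 RPKM was close to that of TIMP3. The summed level of the MMP members divided by that of TIMP1, TIMP3 and TIMP4, both in RPKM, was 1.97, 1.59, 1.995, 1.42 and 2.92 in SWNT-SHP1i and 2.07, 1.68, 1.67, 1.57 and 1.58 in SWNT. The ratio was highest in replicate 6 and overlapped between the groups otherwise. With TIMP2 in the denominator it was 0.873 to 2.03 in SWNT-SHP1i and 0.967 to 1.17 in SWNT. TIMP3 made up 10.5% of the TIMP sum in replicate 6 and 51.2 to 77.7% in the other 9 libraries.

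Among the ADAMTS genes that cut versican and aggrecan, ADAMTS1, ADAMTS8 and ADAMTS15 had lower values in most SWNT-SHP1i libraries and their highest value in SWNT replicate 3. ADAMTS1 lies on chromosome 13, 190276430 to 190286214 (minus strand), 75.5 kb from ADAMTS5. It had 47.7, 83.7, 38.8, 164 and 37.1 CPM in SWNT-SHP1i and 71.9, 149.6, 417, 358 and 62.5 CPM in SWNT. Replicates 1, 3 and 6 of SWNT-SHP1i were below every SWNT library, and SWNT replicates 3 and 4 were above every other. It had a log2 fold change of -1.51 ± 0.59 (SE), -1.34 without SWNT-SHP1i replicate 6 and -1.11 without SWNT replicate 3.

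ADAMTS8 and ADAMTS15 lie 17.0 kb apart on chromosome 9, on opposite strands. ADAMTS8 had 5.41, 14.7, 2.66, 17.9 and 2.08 CPM in SWNT-SHP1i and 19.9, 14.2, 52.7, 16.6 and 14.7 CPM in SWNT. Again SWNT-SHP1i replicates 1, 3 and 6 were below every SWNT library. The same 3 libraries had the lowest smooth muscle sums, 24693, 24152 and 16976 CPM, where the other 7 libraries had 30519 to 48357 CPM. They were also lowest for the substrate ACAN, aggrecan, with 7.57, 8.04 and 11.6 CPM where the other 7 had 34.4 to 136 CPM. The same split of libraries recurred in some of the other lists. Neutrophil sums were 33.6, 53.9 and 114 CPM in these 3 libraries and 2.19 to 9.84 CPM in the other 7, though not every neutrophil marker followed. CKM, a skeletal muscle marker, had 143, 166 and 90.8 CPM against 6.92 to 23.9 CPM. The rest of its list did not share this. ACTA1 reached at most 3.41 CPM (SWNT-SHP1i replicate 6), and MYH1 and MYH2 at most 0.182 CPM (SWNT replicate 1). All of these were too low to test, and MB has no row. Their Schwann cell sums were the lowest, 65.0, 77.2 and 29.5 CPM. The macrophage, osteoclast, fibroblast, endothelium, T cell and adipocyte sums did not split the libraries in this way. The split is thus not particular to 1 list, though not shared by all. The part of any of these genes in the ADAMTS1 and ADAMTS8 differences was not tested. ADAMTS8 had a fitted log2 difference of -1.46 ± 0.61 (SE), -1.22 without SWNT-SHP1i replicate 6 and -0.93 without SWNT replicate 3. ADAMTS15 had 93.1, 146, 90.6, 101 and 96.3 CPM in SWNT-SHP1i and 114, 127, 453, 103 and 126 CPM in SWNT. All SWNT-SHP1i libraries but replicate 2 were below the lowest SWNT library. A log2 fold change of -0.81 ± 0.40 (SE) became -0.78 without SWNT-SHP1i replicate 6 and -0.16 without SWNT replicate 3.

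ADAMTS4, an aggrecanase, had 4.78, 15.7, 9.07, 12.6 and 28.1 CPM in SWNT-SHP1i and 8.40, 7.96, 58.2, 7.15 and 8.80 CPM in SWNT. SWNT replicate 3 was again the highest library, 6.61-fold above the median of the other 9, and its log2 fold change of -0.37 ± 0.65 (SE) was 0.80 without it and -0.78 without SWNT-SHP1i replicate 6. ADAMTS1, ADAMTS8 and ADAMTS15 stood 5.80-fold, 3.59-fold and 4.39-fold above that median in the same library. ADAMTS5, the other main aggrecanase, did not share this, with 6.38, 12.5, 8.58, 11.2 and 1.75 CPM in SWNT-SHP1i and 8.85, 4.95, 6.45, 10.6 and 6.32 CPM in SWNT and a log2 fold change of 0.12 ± 0.44 (SE), 0.38 without SWNT-SHP1i replicate 6. ADAMTS9 had 50.3, 67.9, 47.99, 96.8 and 4.53 CPM in SWNT-SHP1i and 67.4, 79.9, 69.5, 74.8 and 89.1 CPM in SWNT. SWNT-SHP1i replicate 6 had 4.53 CPM of ADAMTS9 where the other 9 libraries had 47.99 to 96.8, and the log2 fold change of -0.51 ± 0.52 (SE) was -0.21 without it. ADAMTS20, of the same group, had 0 to 1.08 CPM in SWNT-SHP1i and 1.07 to 1.61 CPM in SWNT, and 1 SWNT-SHP1i library, replicate 5, lay within the SWNT range.

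ADAMTS19, an enzyme whose substrates are little known, had the smallest unadjusted p of the 47 tested. It lies on chromosome 2, 132145310 to 132409915 (plus strand) and had 35.1, 2.13, 18.2, 2.10 and 6.20 CPM in SWNT-SHP1i and 2.16, 2.30, 0.670, 3.64 and 1.89 CPM in SWNT. Replicates 1, 3 and 6 were above every SWNT library, and replicates 2 and 5 lay among them. Replicates 1, 3 and 6 also stood apart for the neutrophil, smooth muscle and Schwann cell sums and for CKM, the only skeletal muscle marker tested. The part of these markers was not tested. Its log2 fold change was 2.58 ± 0.77 (SE), with a 95% interval of 0.90 to 4.26, and 2.75 without replicate 6. It was 1.72 without replicate 1, 2.62 without replicates 3 and 6, and 2.19 over animals with B9 numbers. DESeq2 gave it an adjusted p = 0.142, the lowest of any named member under any alternative. ADAMTS16, ADAMTS17 and ADAMTS18, also with few known substrates, spanned 6.92 to 23.8, 9.02 to 29.9 and 0 to 4.95 CPM in SWNT-SHP1i. In SWNT the 3 genes spanned 0.659 to 24.4, 3.62 to 13.2 and 3.17 to 6.02 CPM, and the groups overlapped in each.

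ADAMTS7, which cuts cartilage oligomeric matrix protein and lies at a human locus for coronary disease, had 22.97, 27.4, 19.1, 14.3 and 99.2 CPM in SWNT-SHP1i and 19.4, 19.6, 18.98, 9.54 and 14.8 CPM in SWNT. Replicates 1, 2 and 6 were above every SWNT library. The fitted log2 difference of 1.15 ± 0.48 (SE) was 0.35 without replicate 6. The row TBC1D2B overlaps ADAMTS7 on the opposite strand, so reads of the pair may not be fully separated. ADAMTS12, its nearest relative, had 32.2 to 97.2 CPM in SWNT-SHP1i and 67.4 to 86.9 CPM in SWNT. The procollagen peptidase ADAMTS2 had 399.5, 457, 262, 343 and 335 CPM in SWNT-SHP1i and 402, 272, 172, 281 and 302 CPM in SWNT, with a log2 fold change of 0.33 ± 0.24 (SE), 0.35 without replicate 6. Its relative ADAMTS3 had 3.08 to 9.89 CPM in SWNT-SHP1i and 6.01 to 10.3 CPM in SWNT, and ADAMTS14 had 1.03 to 8.15 CPM in SWNT-SHP1i and 2.41 to 4.90 CPM in SWNT. ADAMTS10, which associates with fibrillin microfibrils, had 153, 145, 131, 123 and 258 CPM in SWNT-SHP1i and 144, 152, 203, 99.8 and 132 CPM in SWNT (log2 fold change 0.15 ± 0.25, SE, and -0.085 without replicate 6). ADAMTS6, its relative, spanned 11.6 to 14.4 CPM in SWNT-SHP1i and 6.97 to 14.7 CPM in SWNT. ADAMTS13, the protease of von Willebrand factor made mainly by liver, had at most 68 counts in any library and none in SWNT-SHP1i replicate 3, and its log2 fold change was -0.22 ± 0.97 (SE), -0.63 without replicate 6.

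Among the ADAMs, the best known sheddases are ADAM10 and ADAM17, and the intervals of both included 0. ADAM10, which releases Notch and cadherin ectodomains, had 40.1, 48.9, 29.7, 46.8 and 23.7 CPM in SWNT-SHP1i and 45.4, 32.5, 37.1, 43.9 and 35.95 CPM in SWNT (log2 fold change -0.042 ± 0.22, SE, 95% interval -0.53 to 0.44, and 0.086 without replicate 6). ADAM17, which releases TNF and ligands of the EGF receptor, had 12.4, 11.95, 9.21, 12.4 and 4.16 CPM in SWNT-SHP1i and 14.2, 10.97, 6.14, 14.7 and 14.3 CPM in SWNT (log2 fold change -0.27 ± 0.34, SE, 95% interval -1.0 to 0.47, and -0.072 without replicate 6). Both genes had their lowest value in SWNT-SHP1i replicate 6. The rows IAH1 and TM2D2 overlap ADAM17 and ADAM9 on the opposite strand. ADAM9 releases growth factor ligands and cuts other membrane proteins. ADAM9 had 61.9, 53.1, 44.2, 58.6 and 13.1 CPM in SWNT-SHP1i and 50.4, 33.8, 35.1, 44.4 and 42.1 CPM in SWNT. Replicates 1, 2 and 5 were above every SWNT library and replicate 6 was below all, and the log2 fold change was 0.17 ± 0.33 (SE), and 0.40 without replicate 6.

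ADAM12, a protease of remodelling mesenchyme, had 10.2, 30.8, 7.06, 9.98 and 155 CPM in SWNT-SHP1i and 14.9, 4.22, 7.19, 10.2 and 5.87 CPM in SWNT. Replicates 2 and 6 were above every SWNT library, and replicate 6 stood 15.5-fold above the median of the other 9 libraries. Its log2 fold change of 2.33 ± 0.81 (SE) was 0.78 without that library. ADAM8, found on leukocytes and osteoclasts, had 6.78, 8.73, 4.48, 3.06 and 62.6 CPM in SWNT-SHP1i and 8.76, 5.72, 15.2, 2.31 and 7.51 CPM in SWNT. In log2 its difference was 1.11 ± 0.79 (SE), and -0.45 without replicate 6. ADAM28, found on lymphocytes, had 6.68, 9.17, 2.93, 2.76 and 20.9 CPM in SWNT-SHP1i and 6.47, 3.598, 3.30, 2.86 and 5.12 CPM in SWNT, with log2 fold changes of 0.99 ± 0.53 (SE) and of 0.34 without replicate 6. The T cell marker sum was also highest in replicate 6 (40.1 CPM), next to 39.4 CPM in SWNT replicate 5. CD3E and CD5 were highest there, but CD3D, CD3G and CD2 were not. The macrophage, neutrophil and osteoclast sums were highest in replicate 6 as well. The part of these markers in the ADAM28 difference was not tested.

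ADAM15, expressed by endothelium and smooth muscle, had 122, 164, 113, 88.7 and 325 CPM in SWNT-SHP1i and 116, 77.03, 170.3, 87.6 and 84.6 CPM in SWNT (log2 fold change 0.60 ± 0.35, SE, and 0.18 without replicate 6). ADAM19, a sheddase of neuregulin, had 87.5, 124, 76.2, 84.3 and 129 CPM in SWNT-SHP1i and 112, 89.5, 61.02, 73.4 and 126 CPM in SWNT, a log2 fold change of 0.12 ± 0.24 (SE), 0.01 without replicate 6. ADAM33, known from airway smooth muscle, had 135, 124, 68.8, 89.6 and 124 CPM in SWNT-SHP1i and 117, 99.2, 92.5, 74.9 and 92.8 CPM in SWNT, a log2 fold change of 0.18 ± 0.21 (SE), 0.13 without replicate 6. In these 3 genes the groups overlapped. ADAM11, ADAM22 and ADAM23 lack the residues for catalysis and are known from nerve. ADAM23 had 6.71, 13.1, 9.29, 14.5 and 3.58 CPM in SWNT-SHP1i and 16.9, 18.8, 12.8, 17.7 and 18.4 CPM in SWNT, with replicates 1, 3 and 6 below every SWNT library and a log2 fold change of -0.84 ± 0.34 (SE), or -0.63 without replicate 6. The Schwann cell markers summed to 65.00, 93.6, 77.2, 102 and 29.5 CPM in SWNT-SHP1i and 159, 137, 127, 122 and 128 CPM in SWNT. These sums did not overlap between the groups, and 0 of 4 markers in the table had a positive fold change. Replicates 1, 3 and 6 also stood apart for the neutrophil and smooth muscle sums. The part of these markers in the ADAM23 difference was not tested. ADAM11 had 1.20 to 3.24 CPM in SWNT-SHP1i and 1.59 to 5.13 CPM in SWNT, and ADAM22 had at most 44 counts in any library.

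Many genes, members and others alike, had an extreme value in SWNT-SHP1i replicate 6. Of 47 tested members, 31 (65.96%) had their highest or lowest value there, against 60.1% of all genes tested. Values more than 2 times the highest of the other 9 libraries were found in 11 members (23.4%) and in 7.09% of all genes. These were MMP2, MMP9, MMP14, MMP15, MMP19, MMP25, TIMP1, ADAMTS7, ADAM8, ADAM12 and ADAM28. Values under 0.5 times the lowest of the other 9 were found in 5 members (10.6%), namely MMP27, TIMP3, ADAMTS5, ADAMTS9 and ADAM9, and in 11.4% of all genes. SWNT replicate 3 had 3 members above 2 times all others, ADAMTS4, ADAMTS8 and ADAMTS15, which is 6.38% against 1.22% of all genes. It also had 3 members under 0.5 times all others, MMP12, ADAMTS17 and ADAMTS19, which is 6.38% against 1.77% of all genes. SWNT-SHP1i replicate 3 had 3 members under 0.5 times all others, ADAMTS13, ADAMTS14 and ADAMTS18, which is 6.38% against 10.3% of all genes. The highest or lowest value lay in that library for 11 members (23.4%) and for 38.0% of all genes.

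**Figure D4:**
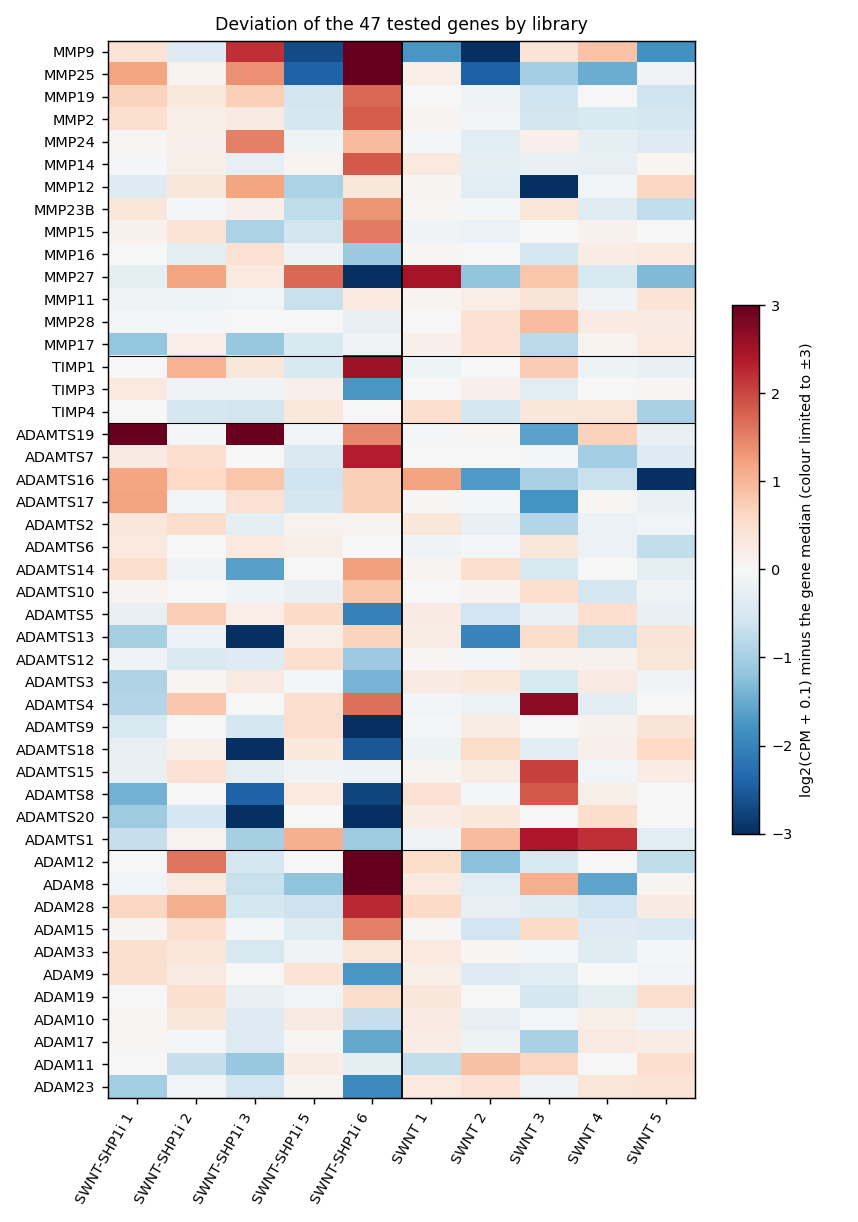
Deviation of each tested gene from its own median over 10 libraries, as log2(CPM + 0.1), with SWNT-SHP1i libraries left of SWNT libraries and the families separated by lines. Colours are limited to a deviation of 3 in either direction. The column of SWNT-SHP1i replicate 6 holds cells at this limit, with MMP9 at 221 CPM and ADAMTS9 at 4.53 CPM. Other columns reach it too, as for ADAMTS18 at 0 CPM in SWNT-SHP1i replicate 3 and ADAMTS19 at 35.1 CPM in SWNT-SHP1i replicate 1.

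Other genes of the pathway held no gene past the adjusted threshold either. Of 28 tested regulators outside the families (activating proteases, inhibitors, tetraspanins and iRhoms), 14 had positive and 14 negative fold changes, with a median of 0.028. Without replicate 6, 8 were positive and the median was -0.059. TSPAN15, a tetraspanin that guides ADAM10, had 29.8, 46.95, 43.3, 36.9 and 49.8 CPM in SWNT-SHP1i and 58.2, 65.1, 49.3, 52.7 and 73.8 CPM in SWNT (log2 fold change -0.53 ± 0.19, SE). PCOLCE, an enhancer of procollagen C-proteinase, had a log2 fold change of 0.68 ± 0.27 (SE). Of 12 tested ADAMTS-like proteins and other enzymes of the clan, 5 were positive (median -0.02), and 8 without replicate 6 (median 0.18). PAPLN, papilin, was at 0.86 ± 0.33 (log2 fold change, SE), and ADAMTSL5 was at 0.81 ± 0.39 (SE). Matrix substrates had 15 of 23 positive with and without that library (median 0.19, and 0.11 without it), with the smallest p for VCAN and COL1A1. VCAN, a substrate of the ADAMTS proteoglycanases, had 585, 131, 383, 69.2 and 224 CPM in SWNT-SHP1i and 96.3, 106, 63.9, 110.3 and 71.8 CPM in SWNT, with replicate 5 the lowest SWNT-SHP1i library, and a log2 fold change of 1.64 ± 0.47 (SE). COL1A1, the chain of fibrillar collagen, had a log2 fold change of 0.98 ± 0.29 (SE). Of 29 tested membrane proteins that ADAM10 or ADAM17 release, 13 were positive (median -0.02), and 14 without replicate 6 (median -0.0056). CD163, the haemoglobin receptor of macrophages, had a log2 difference of 1.82 ± 0.45 (SE). Over the 4 lists 0 genes passed the adjusted threshold in either direction. Without replicate 6 the values were -0.61 for TSPAN15, 0.43 for PCOLCE, 0.81 for PAPLN, 0.89 for ADAMTSL5, 1.71 for VCAN, 0.84 for COL1A1 and 1.57 for CD163.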

How the data were processed

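RNA of carotid artery was sequenced in pigs by the submitters. The labels' protocols name Trizol for extraction, poly-T beads for mRNA capture and random hexamers for priming. The authors deposited 1 table of whole read counts by gene, with the summed exon length of each gene in bases (unit other) per the file headers. Trim Galore, STAR and DESeq2 and the build Sscrofa11.1 are named in the submitters' processing notes, while versions, the program that counted reads, its strand setting and the annotation were not given in the sources used here. Reads of overlapping antisense genes, and of near-identical copies, may therefore be mixed. Counts are reads, not independent molecules.

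Groups came from the sample titles, and replicate numbers follow accession order and pair no animals. Counts were filtered with filterByExpr (minimum count 10, 15930 genes left, holding at least 99.9% of the counts of each library), scaled by TMM and tested with edgeR 4.0.16 (robust quasi-likelihood fit, R 4.3.3), SWNT-SHP1i against SWNT without covariates. P-values were adjusted by Benjamini-Hochberg over all genes tested, with a threshold of 0.05. The SE of a fold change was taken from its F statistic (size over the root of F). CPM use TMM-scaled library sizes, and RPKM divide them by exon length. Because the fit averages on the count scale, a single high library weighs heavily in a fold change. All genes were fitted, and the members' results were read from that fit. The test was tried on simulated counts with known changes. Tried as alternatives were RLE scaling, no filter, at least 1 CPM in 5 libraries, DESeq2 1.42.0, limma-voom with quality weights (limma 3.58.1), animals with B9 numbers only, summed rows of a name, a threshold of 0.1, and libraries left out.

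Names came from the table itself, and for other lists also from gene identifiers (223 genes) or RefSeq position on Sscrofa11.1 (866 genes, overlap of at least 0.5 of the union). Named with full values were the 4 smallest p and the 3 highest mean RPKM in MMP, ADAMTS and ADAM, all TIMP genes, non-overlapping genes, a fixed list by role, and the 2 smallest p of each other list, of which 1 gene is not reported here. MMP28 and ADAMTS15 were added after their values were seen, and the rest appear by range, MMP11 also with its fold change. The members and lists were chosen with earlier results of these data known. Protein and promoter sequences were not used here.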

Additional observations from a re-analysis of the deposited data

Results flagged for a closer look

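In 13 of 64 groups of 5 libraries, over the named genes, 1 library lay further from its neighbours than Dixon's limit of 0.71 of the group's range on the log2 CPM scale. Chance puts about 1 in 20 groups past it, and over all genes tested 13.2% of groups lay past it. The 13 are 20.3% of the named groups, but the named genes were chosen partly by small p, 3 of the 13 are in MMP28 and ADAMTS15, named after their values were seen, and 12 fall in 2 libraries, so they are not independent. SWNT-SHP1i replicate 6 was far below its group for ADAM9 (13.1 CPM, others 44.2 to 61.9), ADAM17 (4.16 CPM, others 9.21 to 12.4), ADAMTS9 (4.53 CPM, others 47.99 to 96.8), MMP28 (132 CPM, others 151 to 156) and TIMP3 (329.5 CPM, others 1028 to 1362). It was far above its group for MMP14 (1351 CPM, others 317 to 428).

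SWNT replicate 3 was far above the other 4 SWNT libraries for ADAMTS4 (58.2 CPM, others 7.15 to 8.80), ADAMTS8 (52.7 CPM, others 14.2 to 19.9), ADAMTS15 (453 CPM, others 103 to 127) and TIMP1 (184 CPM, others 92.8 to 109). It was far below them for ADAM23 (12.8 CPM, others 16.9 to 18.8) and MMP12 (0 CPM, others 0.708 to 1.44), in a library with 1982 genes at 1 to 19 counts. SWNT-SHP1i replicate 2 stood above its group for ADAMTS15 (146 CPM, others 90.6 to 101).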

How the results depend on the processing

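Under all alternatives run, 0 members and 0 genes in all had an adjusted p under 0.05, and 0 members did at 0.1. Of 32 named and tested members, 20 kept the sign of their fold change in every alternative, among them MMP2, MMP14, MMP19, MMP25, TIMP1, ADAMTS1, ADAMTS7, ADAMTS8, ADAMTS19, ADAM12 and ADAM23. Members at an unadjusted p under 0.05 numbered 3 to 11 (higher) and 0 to 5 (lower) with 1 library left out, the 3 without SWNT-SHP1i replicate 6, the 11 without replicate 5 and the 0 without replicate 1. Of all genes, 1.75 to 6.31% were higher and 0.713 to 3.48% lower in those settings, with 6.31% and 3.48% without replicate 5. Without replicates 3 and 6 they numbered 2 and 1 (all genes 1.76% and 1.47%). Over B9 animals, which include replicate 6, 6 were higher (12.8%, all genes 2.77%) and 1 was lower (2.13%, all genes 0.586%). Groups did not overlap in 0 to 2 members (higher) and 0 to 3 (lower) with 1 library left out, where 0.117 to 1.78% and 0.395 to 2.37% of all genes did not. Without replicates 3 and 6 it was 1 and 1 (1.47% and 1.43% of all genes), over B9 animals 1 and 2 (0.492% and 0.953%), and with no filter 1 lower (0.249%). The cause was not tested.

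Without replicates 3 and 6 the median log2 fold change was 0.018 for MMP and 0.13 for TIMP genes, and that of TIMP genes ran from -0.23 to 0.077 with 1 library left out. That of ADAMTS genes was 0.29 over B9 animals and 0.017 with limma-voom, and ran from -0.33 to 0.093 with 1 library left out, positive without SWNT-SHP1i replicate 3 (0.093) and without SWNT replicate 3 (0.073). Signs turned without replicates 3 and 6 for ADAM10 (0.22), ADAM17 (0.027), ADAM8 (-0.34), ADAMTS10 (-0.055), MMP12 (-0.055), MMP9 (-0.026) and TIMP3 (0.13). They turned over B9 animals for ADAM10 (0.018), ADAMTS13 (0.31), ADAMTS4 (0.92), MMP12 (-0.21) and TIMP4 (0.020), and with limma-voom for ADAM10 (0.21) and ADAMTS4 (0.16). With 1 library left out the values ran from -0.15 to 0.086 for ADAM10, -0.0011 to 0.25 for ADAM19, -0.45 to 1.49 for ADAM8, -0.085 to 0.29 for ADAMTS10, -0.63 to 0.093 for ADAMTS13, -0.78 to 0.80 for ADAMTS4, -0.092 to 0.38 for ADAMTS5 and -0.29 to 0.077 for TIMP3. No paired analysis was possible because replicate numbers follow accession order and the labels tie no animals across groups. Members under about 1 CPM, MMP3, MMP7, MMP12, ADAMTS13, ADAMTS20 and ADAM22, are limited by depth.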
